A study of Homo sapiens with 6 samples.

Results

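The 5p arms of the late annotated mirtrons are the mature miRNAs cut from the 5′ side of hairpins that lie in late blocks of the human miRNA naming series. They were taken by name, as every human miRNA on the array called miR-6715-5p to miR-6895-5p or miR-7106-5p to miR-7114-5p. A letter a or b could follow the number. This gave 185 of the 2549 human miRNAs on the array. These number blocks are mostly, not wholly, mirtrons, and the name is used here for all members by their number. The blocks were chosen with earlier results of these data known. Exosomes, the small vesicles that cells release, were precipitated with ExoQuick-TC from the medium of H9 cells, an established line of human embryonic stem (ES) cells grown on Matrigel, a basement membrane extract. Their miRNAs were read on Agilent arrays in a single colour, with 1 array of substate 1 and 1 of substate 2 in each of 3 experiments. In the study, substate 1 stands for colonies high in the pluripotency epitope R-10G and without the mesenchymal marker vimentin, and substate 2 for colonies with less R-10G and with vimentin. The cells of substates 1 and 2 were at passages 41 and 52 in experiment 1, at 46 and 61 in experiment 2, and at 50 and 65 in experiment 3, and 72.4, 100 and 51.4 ng were labelled for either substate. The question was how many of the mirtron 5p arms were detected in exosomes, at which level, and how their levels compared between the substates.

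Substate 2 was at the later passage in every experiment, so that substate and passage cannot be told apart. All samples came from 1 cell line, and precipitation from medium can also bring down RNA that is not in vesicles. The labels do not say that the experiments were separate cultures beyond their passages, so that every p-value below measures only the spread between these samples.

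A mirtron is a short intron that folds into a hairpin once it has been spliced out of its host transcript. Splicing takes the place of the enzyme Drosha in freeing the hairpin, and Dicer then cuts it into its 5p and 3p arms. Since the ends of the hairpin lie at or near the ends of an intron, they carry the letters of splice sites, typically GU at the 5′ end and AG at the 3′ end. In tailed mirtrons extra intron sequence lies between a splice site and the hairpin. As for any miRNA, bases 2 to 8 of the mature strand form the seed, which pairs with target mRNAs. Most of the miRNAs described here have no well established function, and none is given for them.

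The mature sequences below are those on which the results turn, written 5′ to 3′ with the seed in capitals, as given by RefSeq. The first 5 belong to the 5p arms with the most negative differences between the substates among those with values on the same side in all experiments.
miR-7107-5p: uCGGCCUGgggaggaggaaggg
miR-7110-5p: uGGGGGUGuggggagagagag
miR-6785-5p: uGGGAGGGcguggaugauggug
miR-6763-5p: cUGGGGAGuggcuggggag
miR-6740-5p: aGUUUGGGauggagagaggaga
Another 4 are shown because their levels were high or their differences did not go the same way. They are the brightest member, a bright member that hardly differed, the one with values above substate 1 in all experiments besides the brightest, and a member whose hairpin has the splice letters at both ends.
miR-6869-5p: gUGAGUAGuggcgcgcggcggc
miR-6800-5p: gUAGGUGAcagucaggggcgg
miR-6789-5p: gUAGGGGCgucccgggcgcgcggg
miR-7108-5p: gUGUGGCCggcaggcgggugg

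The RefSeq table, on genome build GRCh38.p14, held a mature sequence for 158 of the 185 members. The 5p arms were rich in G. Their median share of G was 50.0%, against 26.1% in the other human miRNAs and 14.3% in the 3p arms of the same numbers, where C made up 45.5%. A run of 4 G (GGGG, searched along the mature strand alone) stood in 77 members, which is 48.7%, and in 9.19% of the other human miRNAs. The run is visible in miR-7107-5p, miR-7110-5p and miR-6763-5p above.

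A total of 165 loci were listed for the members, 4 of which had several, and 157 of the loci (95.2%) lay within the span of a protein-coding gene. The table gives neither exons and introns nor the strand of these genes, so that origin from their transcripts was not checked, and a gene named beside a miRNA below is the one whose span holds its locus. Among the 157 loci with a hairpin sequence, 142 hairpins (90.4%) ended in AG, against 111 of 1393 hairpins (7.97%) of other human miRNAs. By contrast, only 18 (11.47%) started with GU, against 7.90% of the others. The 5p arm began 5 bases into the hairpin at 133 loci and at its first base at 9 loci. Hairpins were 56 to 164 bases long with a median of 67.

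The following hairpins show these layouts, with the 5p arm in capitals. MIR7108, within LMNB2, the gene of a nuclear lamin, started with GU and ended in AG (minus strand of chr19:2434914-2435000). MIR6869, within FKBP1A, which encodes a binding protein of the drug tacrolimus, started with GU and did not end in AG (minus strand of chr20:1392900-1392961). MIR7107, within KDM2B, which encodes a histone demethylase, ended in AG and held the 5p arm 5 bases from its start (minus strand of chr12:121444273-121444352).
MIR7108: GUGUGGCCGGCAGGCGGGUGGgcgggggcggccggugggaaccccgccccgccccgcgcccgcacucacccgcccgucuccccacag
MIR6869: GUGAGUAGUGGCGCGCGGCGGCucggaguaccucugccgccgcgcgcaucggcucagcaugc
MIR7107: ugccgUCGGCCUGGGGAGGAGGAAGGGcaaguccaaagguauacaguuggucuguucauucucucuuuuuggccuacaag

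Among the other members named most below, MIR7110 lies within PDIA5, the gene of a protein disulfide isomerase, with the 5p arm on the plus strand of chr3:123161799-123161819. MIR6785 lies within TMEM94 (5p arm on the plus strand of chr17:75498553-75498574) and MIR6763 within FBRSL1 (5p arm on the plus strand of chr12:132582002-132582020). MIR6800 lies within MED25, which encodes a subunit of the Mediator complex (5p arm on the plus strand of chr19:49832022-49832042), and MIR6789 within PLEKHJ1 (5p arm on the minus strand of chr19:2235899-2235922). An exception is miR-6724-5p, whose listed loci on chromosome 21 were in no protein-coding gene and whose hairpin did not end in AG. Its 5p arm began 10 bases into the hairpin. The hairpins of miR-6715b, miR-6716, miR-6717, miR-6718, miR-6721 and miR-6722 also lacked the final AG. Their 5p arms began 10 bases in, or 15 for miR-6716. Whether each of these is a mirtron was not checked.

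As for the arrays, between 310 and 594 human miRNAs were detected per array, and no spot was saturated. Of the 8 ES cell miRNAs checked, 5 (miR-302a-3p to miR-302d-3p and miR-367-3p) were detected on all 6 arrays, miR-371a-5p on 4, miR-373-3p on 1 and miR-372-3p on 0. Of 13 markers of other cells, miR-124-3p was detected on all 6 arrays, miR-126-3p and miR-145-5p on 3 each, and the other 10 on none. Experiment 1 was on a slide of its own and was read with a later version of the scanner software than experiments 2 and 3, so that experiments also differ in slide and software version.

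A miRNA counts as detected where the scanner software marked its total signal as such. In experiment 1, 65 of the 185 mirtron 5p arms (35.1%) were detected in substate 1 and 54 (29.2%) in substate 2. The numbers of experiment 2 were 53 (28.6%) and 47 (25.4%). Those of experiment 3 were 37 (20%) and 38 (20.5%). Detection was thus highest in experiment 1 and lowest in experiment 3, as it was for all human miRNAs.

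**Figure D1:**
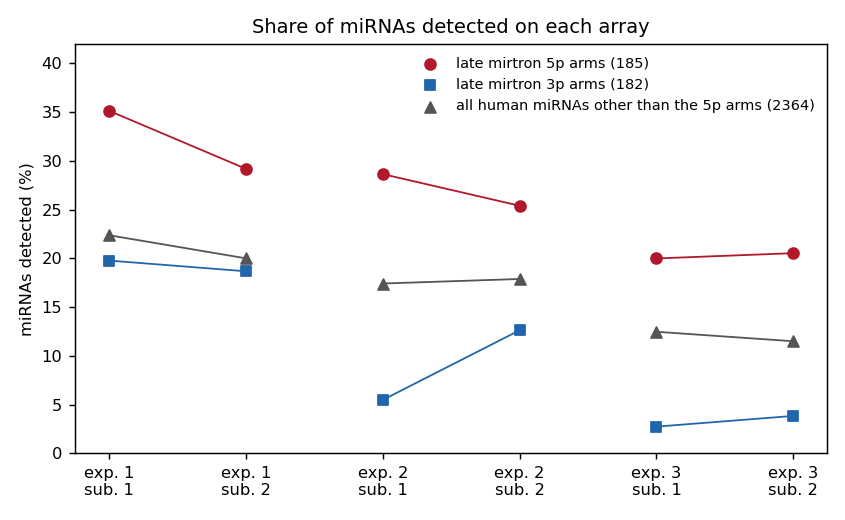
Share of miRNAs detected on each of the 6 arrays, in percent, for the 185 late mirtron 5p arms, the 182 late mirtron 3p arms on the array and the 2364 human miRNAs other than the 5p arms. Lines join the 2 arrays of an experiment, and the 5p arms lie above the other groups shown on every array. The early mirtrons are not shown.

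The 5p arms were detected more often than other human miRNAs on every array. The share of the 2364 other human miRNAs detected was 22.4% and 20.01% in experiment 1, 17.4% and 17.9% in experiment 2, and 12.5% and 11.51% in the last (substate 1 first). The 5p arms exceeded it by 9.54 ± 2.09 percentage points (SD, n = 6 arrays), with an exact two-sided sign-flip permutation p of 0.03125 over the arrays, the smallest that 6 arrays allow. Arrays of an experiment share a slide and a labelled amount, and over the 3 experiment means the exact p was 0.25, the smallest that 3 allow. The number blocks were chosen with earlier results known and every array read the same probes, so these p-values are not independent evidence. The direction depends on the mark used for detection. With the looser mark of a signal positive and significant on at least 1 spot, which takes in 1885 to 2418 of all human miRNAs per array, the 5p arms were below the others, with a mean of -4.36 percentage points (exact two-sided sign-flip permutation p = 0.09375). With the stricter mark, by which most spots of a miRNA had to be well above background (at least 0.5 of them), they were 9.64 points above.

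The 5p arms were also detected more often than the 3p arms of the same number blocks. Of the 182 3p arms on the array, 36 and 34 were detected in experiment 1, 10 and 23 in experiment 2, and only 5 and 7 in the last. The 5p arms exceeded them by 16.0 ± 4.34 percentage points (SD, n = 6 arrays, exact two-sided sign-flip permutation p = 0.03125). Over the 3 experiment means the exact permutation p was 0.25, the smallest possible. These p-values are not independent evidence either. With the looser mark this turned too, to a mean of -4.35 percentage points. Of 22 mirtron arms annotated earlier (miR-877 and miR-1224 to miR-1238), between 6 and 12 were detected per array. Their share, from 27.3% to 54.5%, was above that of the late 5p arms on every array.

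Between the substates, the difference in the number of 5p arms detected was within the spread between experiments and depended on the mark. Substate 2 had 11 and 6 fewer in experiments 1 and 2 and 1 more in experiment 3, a mean of -5.33 ± 6.03 (SD over n = 3 experiments). The sign-flip permutation p, exact and two-sided, was 0.5. With the stricter mark substate 2 had 8, 5 and 2 fewer, a mean of -5 ± 3 (SD over n = 3 experiments), and the exact permutation p was 0.25, the smallest that 3 experiments allow. With the looser mark the mean was 4.33.

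Most 5p arms were seen on every array or on none. A total of 119 (64.3%) were detected on no array, 36 (19.5%) on all 6, and 30 on 1 to 5 arrays. Of all human miRNAs, 75.3% were on no array and 11.3% on all 6. Of these 30, 12 were detected in experiment 1 alone, 14 in experiments 1 and 2, 3 in all experiments, and 1 in experiment 2 alone. Among the 66 detected on at least 1 array, 55 were seen in both substates, 11 (16.7%) in substate 1 alone and none in substate 2 alone. Of the 11, 9 were detected on 1 array only, at low signals of 1.13 to 2.94. For miR-6851-5p this was the array of substate 1 in experiment 2. For the others it was that of experiment 1, the array with the most human miRNAs detected (594). Of the 629 human miRNAs detected on at least 1 array, 11.4% were seen in substate 1 alone and 4.61% in substate 2 alone. No member was detected on all 3 arrays of a substate and on none of the other. Only miR-6717-5p and miR-6768-5p (3.03%) were detected on more arrays of substate 2 than of substate 1, against 12.9% of all human miRNAs detected. On more arrays of substate 1 were 16 members (24.2%), against 22.6% of all those detected.

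Among the hairpins with both arms on the array, numbering 179, the 5p arm alone was detected on at least 1 array for 50, the 3p arm alone for 24, both for 14 and neither for 91. Of the 35 hairpins with a 5p arm on all 6 arrays, 27 had a 3p arm on none. Those of miR-6869, miR-7107, miR-7110, miR-6749 and miR-6821 were among these, while miR-6800-3p was detected on 5 arrays and miR-6785-3p and miR-6763-3p on 2.

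Detected 5p arms held more G than undetected ones. The median share of G was 57.1% in the 29 members with a sequence that were on all 6 arrays, and 45.5% in those on none. None of 8 members with under 30% G was detected, nor were most of those with 30 to 40% (6 of 29, 20.7%) or 40 to 50% (7 of 40, 17.5%). From 50 to 60% G, 31 of 66 (47.0%) were detected on at least 1 array, and from 60% on, 12 of 15 (80.0%). In the other human miRNAs the shares detected were 18.2% under 30% G, 17.6% from 30 to 40%, 33.8% from 40 to 50%, 60.2% (68 of 113) from 50 to 60% and 87.5% (35 of 40) from 60% on. Detection was highest at the high shares of G in either group, while the order of the low bins differed. At like shares of G, the 5p arms were detected less often than the others in every bin but that from 30 to 40%. This comparison was not tested. Among members with a sequence, the 5p arm started with GU in 6 of 29 (20.7%) on all 6 arrays and 3 of 102 (2.94%) on none. Of all human miRNAs with a sequence 3.51% started so, and of all tested ones 4.67%.

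**Figure D2:**
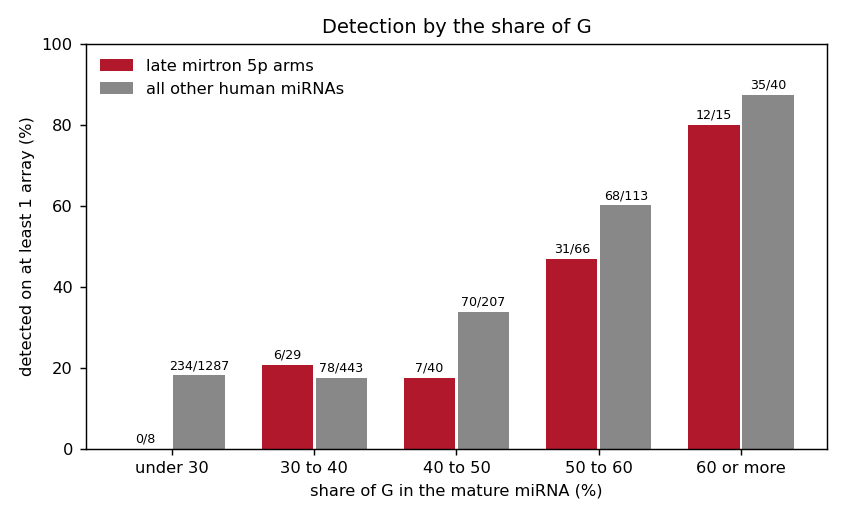
Share of miRNAs detected on at least 1 array, in percent, by the share of G in the mature sequence, for the late mirtron 5p arms and all other human miRNAs with a RefSeq sequence. Numbers above the bars are detected over all miRNAs in the bin, and from 50 to 60% G they were 31 of 66 for the 5p arms and 68 of 113 for the others.

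For the comparison of levels, the total signal of a miRNA was divided by the array's 99th percentile over all human miRNAs and put on a log2 scale, so that 0 stands for the level of that percentile. Low values were raised to a common floor of -7.86. A level is read through the probes of that miRNA, so levels of different miRNAs are not amounts and their order is an order of signals. Differences are substate 2 minus substate 1, and a difference of -1 is 2-fold lower in substate 2. Testing took in every miRNA with detection on 3 or more arrays, which made 474 in all and 50 of the 185 members. The remaining members were left untested, and 11.7% of the values of the tested members were at the floor.

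The tested 5p arms were mostly at lower levels in substate 2, but none passed the test on its own. The differences of the 50 had a median of -0.34 (quartiles -0.58 and -0.09), and ran from -1.37 for miR-7107-5p to 0.56 for miR-6768-5p. The median of all 474 tested miRNAs was -0.01. By experiment, the members' median was -0.41, -0.32 and -0.12 in experiments 1, 2 and 3. Relative to all tested miRNAs, it was -0.37, -0.32 and -0.12. With normexp, another background correction applied to spot signals, the members' median was 0.16 and that of all tested miRNAs 0.33, so that the sign turned while the members stayed on the lower side. Divided by the labelled amount in place of the percentile, the medians were -0.87 and -0.51. The 99th percentile itself was lower in substate 2 in each experiment (475.6 and 268.7, 355.0 and 281.8, and 179.9 and 125.0 signal units), and the part this has in the differences was not tested.

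A miRNA was called when it differed by 2-fold or more with an adjusted p (Benjamini-Hochberg) under 0.05. By this rule limma called none of the 50 members, and 0.0% of all tested miRNAs. The smallest adjusted p of a member was 0.139. Without adjustment, 14 members (28.0%) had a p under 0.05 with a negative difference and none with a positive one, where all tested miRNAs gave 13.3% and 9.7%. The 14 became 7 without experiment 1 and 5 without experiment 3, and with normexp 8 were negative and 22 positive. Under these alternatives the shares of all tested miRNAs were not counted. A negative mean difference was found for 43 members (86.0%), against 51.7% of all tested miRNAs. With quantile normalization it was 34 (68.0%, against 41.1%), and with normexp 17 (34.0%, against 16.5%). In 23 members (46.0%) the difference was negative in all 3 experiments and in 2 positive, against 23.4% and 21.1%. All 3 values of substate 2 lay below all 3 of substate 1 in 15 members (30%, against 14.1% of all tested) and above them in none (against 11.8%). Members at least 2-fold lower numbered 3 (6.0%), close to the 4.64% of all tested miRNAs. They were 1 without experiment 1, miR-7107-5p, and 5 without experiment 2, with miR-6740-5p and miR-6739-5p added. Here too the shares of all tested miRNAs were not counted. In the fit of all experiments no member was at least 2-fold higher, against 4.85% of all tested.

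**Figure D3:**
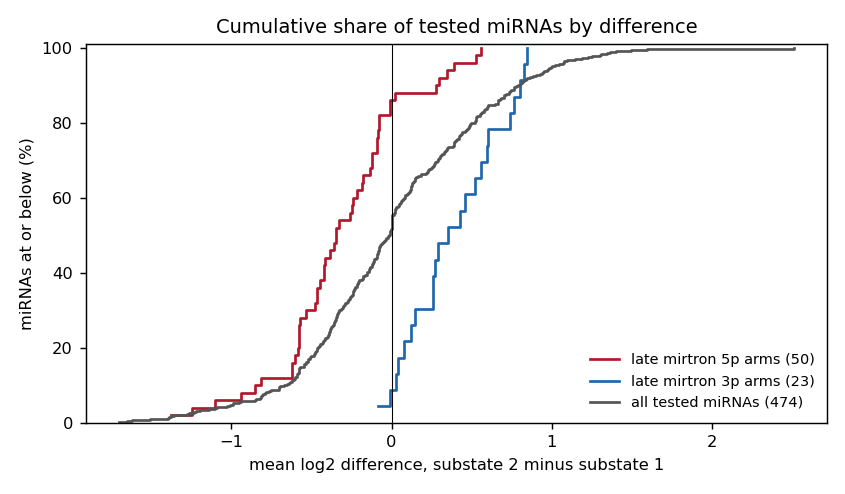
Cumulative share of tested miRNAs, in percent, at or below a mean log2 difference (substate 2 minus substate 1, n = 3 experiments), for the 50 mirtron 5p arms, the 23 mirtron 3p arms and all 474 tested miRNAs. The curve of the 5p arms reaches 86.0% at 0, and the curve of the 3p arms lies to the right. Of all tested miRNAs 51.7% lie below 0 and another 14 miRNAs at 0.

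The differences were more negative in the 36 members detected on all 6 arrays, whose median was -0.42, than in the other 14, whose median was -0.15 and whose values were often at the floor. Among the 36, 32 had a negative mean difference and 22 were negative in all experiments. The tested 3p arms had a positive median whose size depended on the processing. It was 0.35 over 23 miRNAs, with 0.28, 0.79 and 0 in experiments 1, 2 and 3, and 21 of them were positive. Of these 23, 12 were detected on exactly 3 arrays, the fewest that testing took in, and only 3 on all 6. A 3p arm can thus enter the test mainly through the substate where it was seen more often. What part this and the floor have in the median was not tested. The median was 0.06 with quantile normalization, 0.04 with the labelled amount, 0.09 with a floor 2 times as high and 1.42 in the deposited values. The members' median minus that of the 3p arms was -0.69, -1.11 and -0.12 in the experiments. Both arms of a hairpin were tested in only 4 cases. The 5p and 3p differences were -0.36 and 0.08 for miR-6752, -0.09 and 0.74 for miR-6800, -0.13 and 0.04 for miR-6812, and -0.18 and 0.85 for miR-6880, with the 5p arm the lower each time. Among these pairs the 3p arm was detected on 5 arrays for miR-6800 and on 3 each for miR-6752, miR-6812 and miR-6880. The median of 10 tested early mirtron arms was -0.10. These lists were set side by side with no test.

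**Figure D4:**
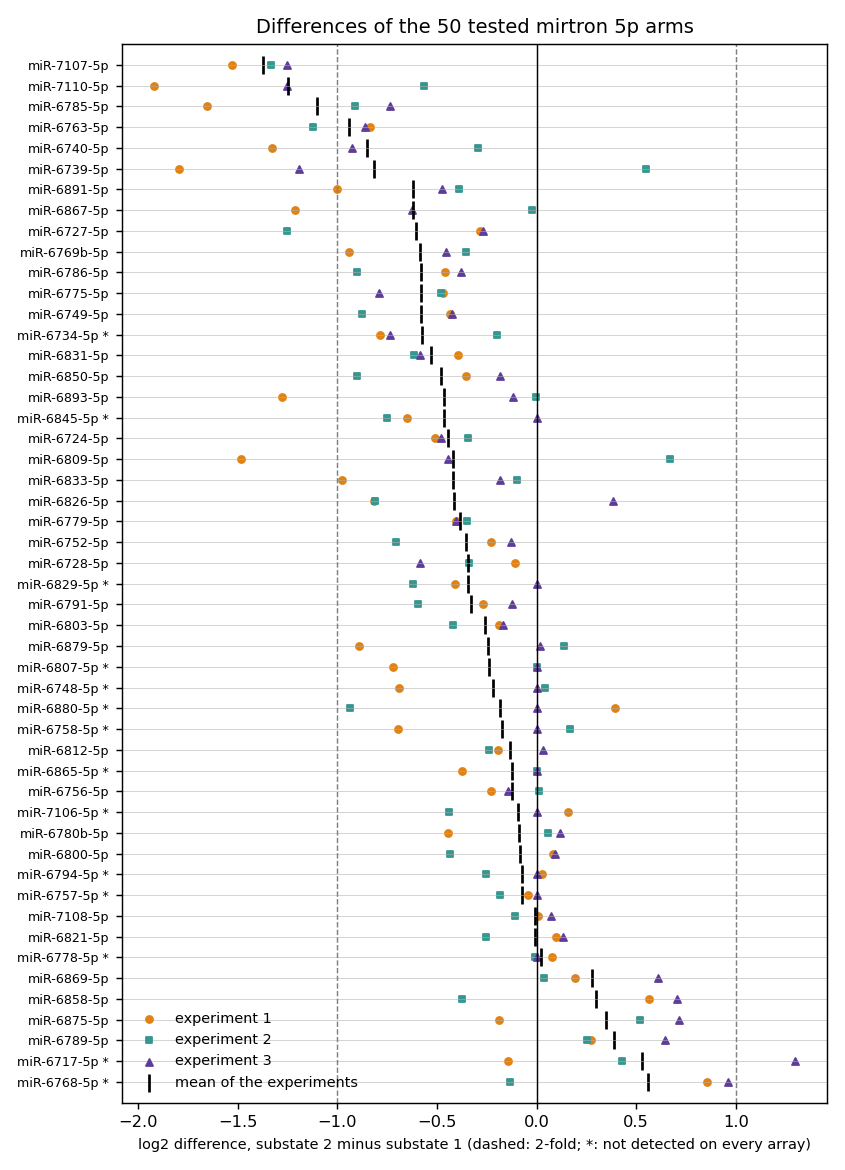
Log2 difference (substate 2 minus substate 1) of each of the 50 tested mirtron 5p arms in each of the 3 experiments, with the mean as a black bar and members not detected on every array marked by an asterisk. The means run from -1.37 to 0.56, and 43 of the 50 lie below 0.

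The 5p arm of MIR7107, in the histone demethylase gene KDM2B, had the most negative difference. Its level in substate 1 was 0.58, 0.46 and 0.00 in experiments 1, 2 and 3, and in substate 2 it was -0.95, -0.87 and -1.25. Before scaling, the signals were 711.9 and 139.2, 488.7 and 153.7, and 180.0 and 52.5. All arrays of substate 2 lay below all of substate 1, and the levels of substate 1 were at or above the array's 99th percentile while those of substate 2 were below it. The difference was -1.37 with a standard error (SE) of 0.10 (limma, adjusted p = 0.139). The call depends on the processing, since its adjusted p in limma was 0.00255 with normexp and 0.0462 among miRNAs detected on all 6 arrays.

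The miR-7110-5p level, with its locus in the disulfide isomerase gene PDIA5, was -0.51, -0.85 and -0.28 in substate 1 and -2.43, -1.41 and -1.54 in substate 2. The groups did not overlap, and the difference was -1.25 (SE 0.33, limma adjusted p = 0.203). It was the other member called with normexp (limma adjusted p = 0.00679). For miR-6785-5p, in TMEM94, the levels were -0.39, -0.67 and -1.01 in substate 1 and -2.05, -1.58 and -1.75 in substate 2. Again the groups did not overlap, with the widest gap in experiment 1, and the difference was -1.10 (SE 0.24, limma adjusted p = 0.178).

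Below 2-fold, miR-6763-5p varied little between experiments. Its levels were -2.94, -2.84 and -3.17 in substate 1 and -3.78, -3.96 and -4.03 in substate 2, without overlap. Its difference was -0.94 (SE 0.10, limma adjusted p = 0.139). In miR-6740-5p, in RNPEP, an aminopeptidase gene, the levels were -2.98, -3.47 and -2.89 in substate 1 and -4.31, -3.76 and -3.81 in substate 2. The values did not overlap, but the gap in experiment 2 was small, and the difference was -0.85 (limma adjusted p = 0.210).

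Among the brighter members, miR-6891-5p, in the class I antigen gene HLA-B, was at -1.14, -1.47 and -1.50 in substate 1 and at -2.14, -1.86 and -1.97 in substate 2. The level of miR-6749-5p, in the autophagy gene ATG2A, was -1.51, -0.87 and -1.17 in substate 1 and -1.94, -1.74 and -1.59 in substate 2. In neither did the substates overlap, and the differences were -0.62 and -0.58 (limma, adjusted p = 0.203 for each). The level of miR-6724-5p was -1.88, -1.58 and -1.26 in substate 1 and -2.39, -1.93 and -1.74 in substate 2. Here the values of the substates overlapped across experiments while each experiment gave a negative difference, with a mean of -0.44 (SE 0.08, limma adjusted p = 0.167).

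At lower levels, 3 members had small differences that varied little between experiments. The differences of miR-6831-5p were -0.39, -0.62 and -0.59, with a mean of -0.53 (SE 0.09, limma adjusted p = 0.164). Those of miR-6775-5p, in the amino acid transporter gene SLC7A5, were -0.47, -0.48 and -0.79, with a mean of -0.58 (limma adjusted p = 0.167). Those of miR-6779-5p, in LASP1, were -0.41, -0.35 and -0.41, with a mean of -0.39 (limma adjusted p = 0.167). In all of these the substates did not overlap, and all had positive differences with normexp (0.13, 0.12 and 0.18). The remaining members without overlap were miR-6727-5p, miR-6769b-5p, miR-6786-5p, miR-6867-5p and miR-6893-5p. Their differences were -0.60, -0.58, -0.58, -0.62 and -0.47, and in miR-6893-5p it rested on experiment 1 (-1.28, against -0.0036 and -0.12).

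**Figure D5:**
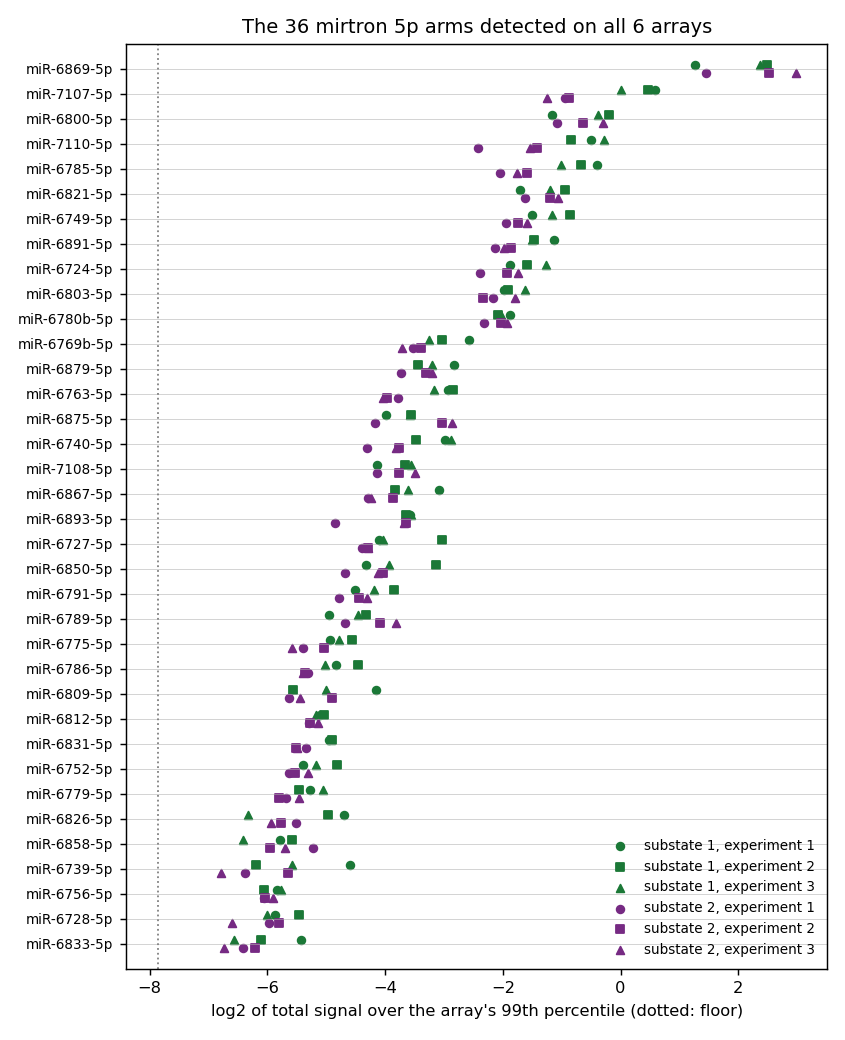
Level of the 36 mirtron 5p arms detected on all 6 arrays, as log2 of the total signal over the array's 99th percentile, with 1 point per array (colour for substate, shape for experiment) and members ordered by mean level. miR-6869-5p is the brightest, from 1.26 to 2.97, and the points of substate 2 lie to the left of those of substate 1 for miR-7107-5p, miR-7110-5p and miR-6785-5p.

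The brightest 5p arms were not those with the most negative differences throughout. The level of miR-6869-5p, in FKBP1A, was 1.26, 2.49 and 2.37 in substate 1 and 1.45, 2.52 and 2.97 in substate 2. Substate 2 was the higher in each experiment, but the groups overlapped, and the difference was 0.28 (SE 0.16, limma adjusted p = 0.330). Divided by the labelled amount, it was -0.28. The level of miR-6800-5p was -1.17, -0.20 and -0.39 in substate 1 and -1.08, -0.64 and -0.29 in substate 2, a difference of -0.09 (SE 0.16) with a sign that changed between experiments. Likewise, the differences of miR-6821-5p (-0.01, SE 0.12), miR-7108-5p (-0.01, SE 0.08) and miR-6780b-5p (-0.09, SE 0.16) were within the spread between experiments.

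Only 7 of the 50 tested 5p arms had positive mean differences, and those of miR-6789-5p and miR-6869-5p were positive in all experiments. The miR-6789-5p level was -4.95, -4.33 and -4.45 in substate 1 and -4.68, -4.08 and -3.81 in substate 2. The substates overlapped, with a difference of 0.39 (SE 0.13, limma adjusted p = 0.218) that was -0.17 when divided by the labelled amount. The differences of miR-6875-5p were -0.19, 0.52 and 0.71 (mean 0.35, limma adjusted p = 0.396), and -0.21 in the mean with the labelled amount. For miR-6768-5p and miR-6717-5p the means were 0.56 and 0.53 (limma adjusted p = 0.307 and 0.393), and both were at the floor in substate 1 of experiment 3. The remaining pair, miR-6858-5p and miR-6778-5p, had 0.30 and 0.02.

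The experiments disagreed most for miR-6739-5p, with differences of -1.80, 0.55 and -1.19 (mean -0.81, SE 0.58), and for miR-6809-5p, with -1.49, 0.67 and -0.44 (mean -0.42, SE 0.51). Both were chosen for mention after their values were seen. In each, experiment 2 alone was positive.

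Members of a shared seed were often not detected alike, and their differences could be compared for the seed GGGGGUG alone. The 158 members with a sequence had 145 distinct seeds, and 12 seeds were shared by 25 members. The seed GGGGGUG is that of miR-7110-5p and miR-6752-5p, both on all 6 arrays, with differences of -1.25 and -0.36. The seed UGGGGUG is that of miR-6812-5p (all 6 arrays, difference -0.13), miR-6819-5p (detected on 2 arrays) and miR-6737-5p (on 0). The seed GGGAAAG is that of miR-6739-5p, on all 6 arrays, and of miR-6733-5p, on 0. Of the 12 shared seeds, 7 had 1 member detected on any array, 2 had several and 3 had none.

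The differences were also set beside the share of G. Of the tested members with a sequence, the 35 with at least 50% G had a median difference of -0.34, with 30 below 0, and the 7 with less G had a median of -0.41, with 6 below 0. Among the other tested miRNAs, the 89 with at least 50% G had a median of -0.24, with 62 below 0, and the 276 with less G had a median of 0.05, with 116 below 0. Across the 42 members, the difference had a Pearson r of -0.21 with the share of G, 0.35 with that of C, and -0.36 with the mean level (Spearman rho -0.18, 0.33 and -0.45). Across the 365 other tested miRNAs with a sequence, r was -0.34 with the share of G, 0.25 with that of C and 0.0067 with the mean level. Across the 21 tested 3p arms with a sequence, r with the mean level was 0.53. These are correlations across miRNAs read on the same 6 arrays, given as descriptions, since the points share their libraries and miRNAs are not independent replicates. What part the share of G has in the lower levels of the 5p arms in substate 2 was not tested. The part of the floor in the correlation with the mean level was not tested either.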

How the data were processed

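The authors labelled exosome miRNAs with Cy3 and deposited the signal intensity of each array as read by Agilent Feature Extraction (version 12.0.3.2 in experiment 1, 11.5.1.1 in experiments 2 and 3), which sums a background-subtracted signal per miRNA without scaling between arrays. The authors also deposited log2 values from GeneSpring GX, for which the paper states a floor, a scaling to the 99th percentile and a correction to 1 ng. These served as an alternative. Each human miRNA had its own probes (members 2 to 3, with 20 spots in all). Precision is limited by the number of arrays.

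Here, log2 of the total signal over the array's 99th percentile was raised to a floor of 0.431% of the percentile, which is the dimmest detected signal of the array where this was highest. miRNAs detected on at least 3 arrays entered a limma fit (version 3.58.1, R 4.3.3) blocked by experiment, as the study's test was paired, which was two-sided and adjusted by Benjamini-Hochberg over all 474. Detection was compared by exact sign-flip permutation in Python 3.11.15 with scipy 1.17.1. The fit was run on simulated data with changes larger than that of any member in the fit reported. Its power for changes of the members' size was not tested. Members were taken by name, but their number blocks and the lists were chosen with earlier results of these data known. Differences of lists between substates were therefore described without a test, and the permutation p-values of detection are not independent evidence. The text names members detected on all 6 arrays (the 30 with the highest mean level), those at least 2-fold different, the 5 with the smallest p in each direction, members detected throughout 1 substate alone, and others where a count or seed called for it. Alternatives covered scaling, floor, background correction, detection mark and filter, fit, test, and each experiment left out. Sequences and loci are from RefSeq (GRCh38.p14), matched by miRNA name.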

Additional observations from a re-analysis of the deposited data

How the results depend on the processing

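With limma, no member was called higher under any alternative, and members were called lower under 2 of them: 2 with normexp (miR-7107-5p and miR-7110-5p) and 1 with the filter on all 6 arrays (miR-7107-5p). Of all tested miRNAs, limma called 2 higher and 2 lower of 474 with normexp. With the filter on all 6 arrays it called 5 higher and 2 lower of 289. Leaving out each experiment gave 0 calls in either direction. The median difference of the members was -0.87 with the labelled amount, 0.16 with normexp and -0.51 in the deposited values, and lay between -0.39 and -0.26 with an experiment left out. The median minus that of all tested miRNAs and that minus the median of the 3p arms were chosen after seeing the data. The first was -0.17 with normexp and -0.20 with detection on at least 1 array, and lay between -0.35 and -0.26 with an experiment left out. The second was -0.70, with -0.28 with normexp, -0.30 with detection on at least 1 array, -0.39 with quantile normalization, -0.42 with a floor 2 times as high, -1.18 with detection on all 6 arrays, -1.93 in the deposited values and a range of -0.86 to -0.48 with an experiment left out. The difference in members detected was 4.33 with the mark of a positive and significant signal, and lay between -8.5 and -2.5 with an experiment left out. The gap in detection was -4.36 percentage points with that mark, 16.0 against the 3p arms, and between 8.82 and 10.2 with an experiment left out. The cause of these shifts was not tested.

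Members at least 2-fold lower numbered 18 with the labelled amount and 9 in the deposited values, where 2 were at least 2-fold higher. Members with an unadjusted p under 0.05 and a negative difference, 14 in the fit reported, were 5 with the floor at 0.5 of its height and in the deposited values, 7 with signals under 1 set to 1, 6 by the methods' t-test and 25 with the labelled amount. For neither limit were the shares of all tested miRNAs counted under these alternatives. For single members, 513 values kept the sign and the side of the threshold, 3 passed it in limma and 26 changed sign. With normexp the signs turned for miR-6752-5p (0.18), miR-6775-5p (0.12), miR-6779-5p (0.18), miR-6786-5p (0.077), miR-6791-5p (0.066), miR-6809-5p (0.15), miR-6812-5p (0.24), miR-6821-5p (0.046), miR-6831-5p (0.13) and miR-7108-5p (0.17). They turned for miR-6789-5p (-0.17), miR-6869-5p (-0.28) and miR-6875-5p (-0.21) with the labelled amount. With quantile normalization they turned for miR-6800-5p (0.054), miR-6821-5p (0.17) and miR-7108-5p (0.014). For miR-6821-5p and miR-7108-5p they also turned with the 75th percentile (0.0072 and 0.0070) and with processed spot signals (0.036 and 0.024). With an experiment left out, the range was -0.19 to 0.087 for miR-6780b-5p, -0.97 to 0.11 for miR-6809-5p and -0.44 to 0.077 for miR-6879-5p, with the highest value without experiment 1. It was -0.18 to 0.089 for miR-6800-5p, -0.080 to 0.11 for miR-6821-5p and -0.051 to 0.041 for miR-7108-5p, with the highest value without experiment 2.

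The arrays of an experiment had deviations from their substate's mean that correlated at 0.674, 0.0307 and 0.517. Without the replicate block, limma called 0 members and 1 of all tested miRNAs, which was lower. The members' median was -0.34 by construction, and their smallest adjusted p in limma was 0.0745. The methods' paired t-test, adjusted over the miRNAs at least 2-fold apart, was run on the levels used here, not on the authors' values. With Benjamini-Hochberg adjustment it called 0 members and 0 of all tested miRNAs. Normexp was planned on mean spot signals and was run on median ones, since the mean was not in the columns used here. The number of arrays, signals at the floor in dim members, and detection that differed between experiments limit these comparisons.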
